A study of Mus musculus with 6 samples.

Results

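The genes described here are 9 genes of retinoic acid signalling in the fetal mouse heart: the retinol carrier Rbp4, the retinal reductase Dhrs3, the retinaldehyde dehydrogenases Aldh1a1, Aldh1a2 and Aldh1a3, the degrading enzymes Cyp26a1 and Cyp26b1, and the receptors Rara and Rarb. They were taken by symbol from a deposited table of 31529 genes, and all 9 were found. Hearts came from ICR mice, an outbred stock, with wild-type genotype and no treatment named in the labels. They were collected on day 16.5 (E16.5) or day 18.5 (E18.5) of embryonic life, with 3 libraries for each stage, described in the series text as biological replicates. The sources used here do not say how many hearts went into a library or from which litter or sex they came. Where nothing says that litters differed, the p-values below measure the spread between these libraries.

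Retinoic acid is made from vitamin A inside cells. Retinol reaches tissues bound to RBP4, is oxidised to retinal (a step that DHRS3 runs in reverse), and retinal is oxidised to retinoic acid by the ALDH1A enzymes. CYP26 enzymes break retinoic acid down, and the receptors RARA, RARB and RARG, paired with an RXR, switch target genes on or off at their response elements. In the developing heart Aldh1a2 is the main synthesis gene, active in the epicardium, and the pathway is known for its part in forming the atria, the outflow tract and the compact ventricular wall.

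Rarb and Cyp26a1 are classic direct targets of the receptors, and their response elements are shown because the values of these genes were compared as targets below. A receptor pair binds a direct repeat of a 6-base motif spaced by 5 bases, called DR5. RefSeq start-site windows on GRCm38.p6 (250 bases before to 50 after each start) were found for 8 of the 9 genes, not for Aldh1a3. They were searched on both strands for the motif AGGTCA or a variant of it (AGTTCA or else GGGTCA or else GGTTCA), followed by 5 bases of any kind and again by any of these 4 motifs. Of 32851 windows of all genes, 32 held such a repeat, or 0.0974%. Among the 15 windows of the 9 genes there were 2, at Rarb and Cyp26a1. As these are the known targets named above, the count beside that share is not a test of the 9 genes. Each line gives the repeat as it reads on its own strand, 5′ to 3′, with the 6-base motifs in capitals.
Rarb DR5: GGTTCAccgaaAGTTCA
Cyp26a1 DR5: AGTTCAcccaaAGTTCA
The elements differed at 2 of 17 bases. The Rarb repeat lies on the strand of the gene at chr14:16575513-16575529, from 53 to 37 bases before the RefSeq start. This is inside the gene as GENCODE places it (16430839 to 16819156). The Cyp26a1 repeat lies on the strand opposite to the gene at chr19:37697776-37697792, from 32 to 16 bases before its RefSeq start. The 240 bases before the GENCODE start of Cyp26a1 (chr19:37697558-37697797, plus strand) show that repeat in its reverse complement, again with the motifs in capitals.
Cyp26a1 upstream: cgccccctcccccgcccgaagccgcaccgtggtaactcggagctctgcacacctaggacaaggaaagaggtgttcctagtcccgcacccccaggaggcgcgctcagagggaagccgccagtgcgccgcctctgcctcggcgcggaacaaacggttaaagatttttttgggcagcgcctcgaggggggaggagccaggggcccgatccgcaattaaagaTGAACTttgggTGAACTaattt
Repeats spaced by 1 or 2 bases were in 0.222% and 0.268% of all windows and in none of these 15. Such a match describes letters and does not show that a receptor was bound.

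The libraries held 61443414 to 77237333 estimated counts. Genes of the mitochondrial chromosome took 19.9% to 41.4% of the counts at E16.5 and 25.2% to 33.5% at E18.5. The library with the lowest share, E16.5 replicate 2, correlated more closely with the E18.5 libraries (0.953 to 0.964, log2 CPM over genes) than with the other E16.5 libraries (0.946 and 0.947). Cardiomyocyte markers were abundant in every library, with Myh6 at 943 FPKM or more. Markers of lung epithelium and liver were also present. Their summed levels were 115 to 175 FPKM and 24.3 to 40.3 FPKM in the E16.5 libraries, then 115 to 217 FPKM and 16.4 to 60.8 FPKM in those of E18.5. Found markers of thymus and T cells summed to at most 0.193 FPKM. Of 6 adipocyte markers, 5 (Adipoq, Plin1, Ucp1, Lep and Retn) were listed at 0 in at least 1 library. The other, Cidea, was at 1.13 to 4.09 FPKM.

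None of the 9 genes passed the test between stages. All 9 genes passed the filter on low counts. In the edgeR quasi-likelihood fit over 19959 genes, 0 of the 9 passed an adjusted p of 0.05 (adjusted p from 0.499 to 0.994), as against 0.150% of all genes tested (0.0952% higher and 0.0551% lower). DESeq2 also called 0. At an unadjusted p under 0.05 there were 2 of the 9, Rara and Cyp26a1, both lower, as against 9.53% of all genes (4.83% higher and 4.70% lower). Of the 9, 7 had a positive log2 change, as against 49.8% of all genes, with a median of 0.26 beside -0.0019 over all genes tested. None of these 7 had an unadjusted p under 0.05, and Aldh1a1 (0.0062) and Rbp4 (0.23) changed sign under some alternatives. The 95% interval of the change lay inside 2-fold in either direction for 4 genes, Aldh1a1, Cyp26b1, Rara and Dhrs3. For the other 5 the interval reached past 2-fold.

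**Figure D1:**
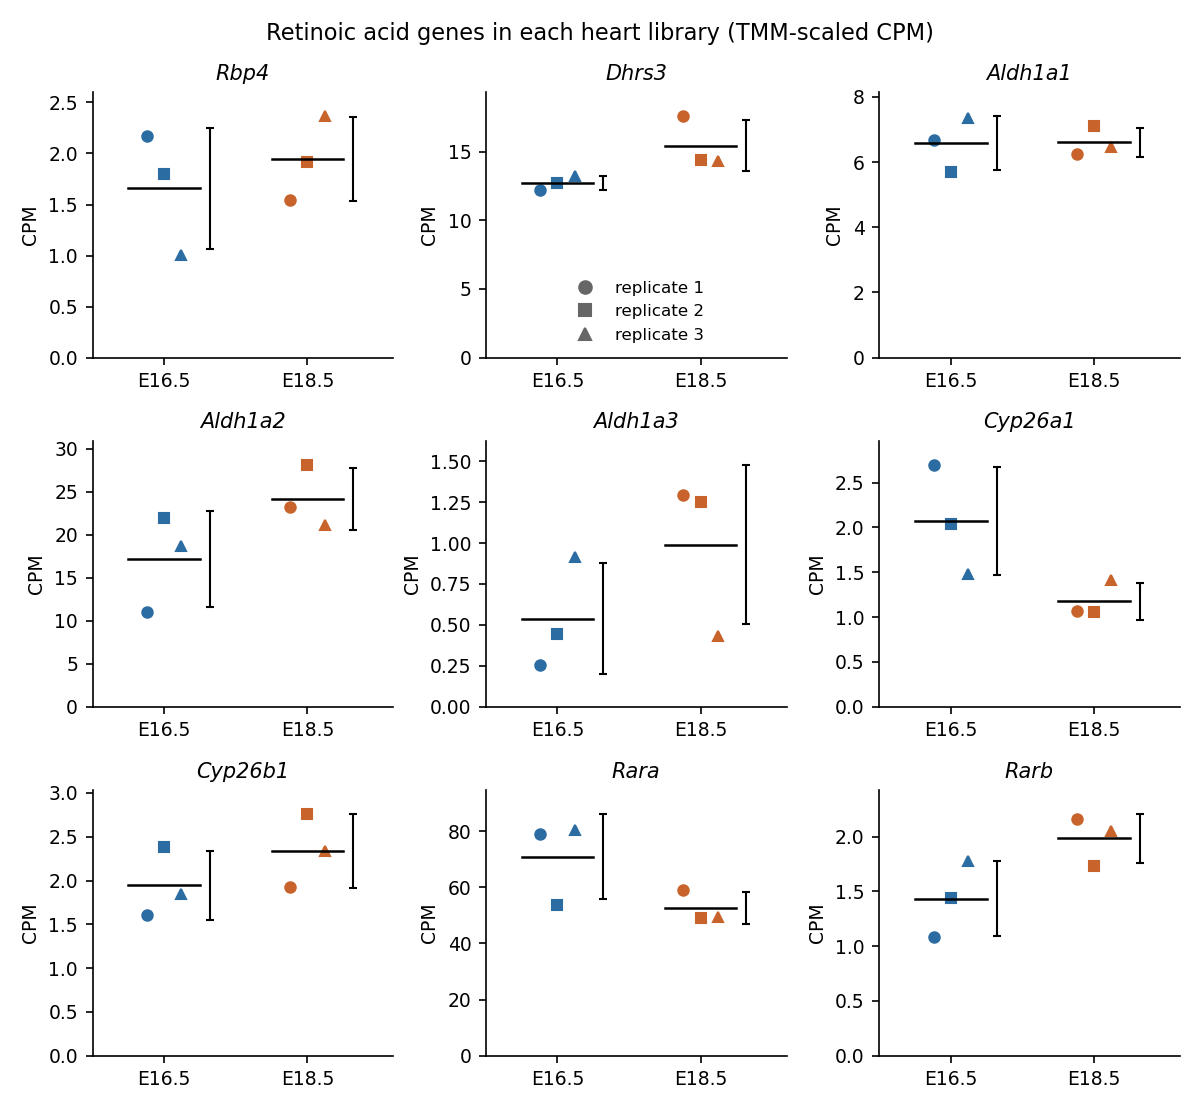
Each panel plots 1 gene, with CPM (counts relative to the TMM-scaled library size) on the vertical axis from 0 and stage on the horizontal axis. Points are libraries, shaped by replicate number, the bar is the mean and the bracket is 1 SD (n = 3). In CPM the stages are apart in Cyp26a1, with E16.5 above, and in Dhrs3, with E18.5 above, and they overlap in the other 7 genes.

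Carrier and reductase. Rbp4, the carrier of retinol in blood plasma (ENSMUSG00000024990, GRCm38 chromosome 19, 38116629 to 38125281), was at 2.17, 1.80 and 1.01 CPM in E16.5 replicates 1, 2 and 3. At E18.5 it was at 1.55, 1.92 and 2.37 CPM. The stages overlapped, the lowest value being E16.5 replicate 3 and the highest E18.5 replicate 3. The log2 change was 0.23 ± 0.37 (SE), with an interval of -0.61 to 1.07 and an adjusted p of 0.859. It was -0.038 without E16.5 replicate 3. Rbp4 is made mainly in liver, and the summed hepatocyte markers were also highest in E18.5 replicate 3. In E16.5 replicate 3, where Rbp4 was lowest, those markers were at 40.3 FPKM, the highest of their stage. The summed lung epithelium markers were highest in E16.5 replicate 1 (188 CPM) and E18.5 replicate 3 (181 CPM), and at 107 to 118 CPM in the others. Rbp4 was also highest in those libraries. The part of either marker list in the level of Rbp4 was not tested.

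Dhrs3, which returns retinal to retinol and is itself induced by retinoic acid (ENSMUSG00000066026, chromosome 4, 144892827 to 144928209), was at 12.2, 12.7 and 13.2 CPM at E16.5. In E18.5 replicates 1, 2 and 3 it was at 17.6, 14.4 and 14.3 CPM. Every E18.5 library lay above every E16.5 library, in CPM and in FPKM, while the gap between the nearest libraries was small. The change in log2 was 0.28 ± 0.15, with an interval of -0.067 to 0.62 and an adjusted p of 0.591. Stages were apart in CPM for 2 of the 9 genes, Dhrs3 and Cyp26a1, as against 16.5% of all genes tested. The share of all genes with E18.5 above was 8.45%, and with E16.5 above 8.02%.

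Synthesis. Aldh1a2, the main retinoic acid synthesis gene of the heart (ENSMUSG00000013584, chromosome 9, 71215789 to 71296243), was at 11.03, 21.9 and 18.7 CPM in E16.5 replicates 1, 2 and 3. It was at 23.3, 28.1 and 21.1 CPM in the E18.5 libraries. The stages overlapped by 1 library, since the value of E16.5 replicate 2 exceeded that of E18.5 replicate 3. E16.5 replicate 1 was far below the rest. That library also had the largest mitochondrial share (41.4% of counts) and the smallest TMM scaling factor (0.812). The part of these in the level of Aldh1a2 was not tested. The log2 change was 0.49 ± 0.25, a 1.40-fold difference, with an interval of -0.082 to 1.06 and an adjusted p of 0.569. It was 0.24 without E16.5 replicate 1 and 0.70 without E16.5 replicate 2.

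Aldh1a1, the cytosolic retinaldehyde dehydrogenase (ENSMUSG00000053279, chromosome 19, 20492715 to 20643465), was at 6.68, 5.70 and 7.36 CPM at E16.5. At E18.5 it was at 6.24, 7.11 and 6.47 CPM. No stage was higher, and Aldh1a1 had the smallest spread of the 9 genes (SD of log2 CPM 0.13 over 6 libraries). In log2 the change was 0.0062 ± 0.19, with an interval of -0.42 to 0.43, and its sign turned with the scaling. Aldh1a7 is a close copy of Aldh1a1 in the mouse, and their main transcripts were 89.1% identical over 2082 aligned positions, as against 64.0% for Aldh1a1 and Aldh1a2. Aldh1a7 held 23 to 87 counts a library beside 416 to 505 for Aldh1a1, so reads could have been divided between them. With the counts of both summed, the log2 change was 0.064.

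Aldh1a3 (ENSMUSG00000015134, chromosome 7, 66390890 to 66427517), the third enzyme of the family and known mainly from eye and nasal development, was the least abundant of the 9. Its counts were 16, 36 and 63 in the E16.5 libraries, in order of replicate, and 86, 88 and 29 in those of E18.5. In CPM these were 0.255, 0.444 and 0.918, then 1.29, 1.25 and 0.431. E18.5 replicates 1 and 2 were high, and E18.5 replicate 3 lay within the E16.5 range. The log2 change of 0.88 ± 0.64 had an interval of -0.58 to 2.33 and an adjusted p of 0.689. With a library left out it ran from 0.54 to 1.48, the latter without E16.5 replicate 3.

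Breakdown. Cyp26a1, the retinoic acid hydroxylase with the response element shown above (ENSMUSG00000024987, chromosome 19, 37697798 to 37701536), was at 2.69, 2.03 and 1.49 CPM in E16.5 replicates 1, 2 and 3. In the E18.5 libraries it was at 1.07, 1.05 and 1.41 CPM. All E16.5 libraries lay above all E18.5 libraries in CPM, by a narrow margin between E16.5 replicate 3 and E18.5 replicate 3. The log2 change was -0.81 ± 0.34, with an interval of -1.60 to -0.029, an unadjusted p of 0.0438 and an adjusted p of 0.504. With a library left out it ran from -1.01 to -0.59, the latter without E16.5 replicate 1. The unadjusted p was under 0.05 in 6 of 14 alternative fits. In FPKM the stages overlapped, with E16.5 replicate 3 at 0.626 and E18.5 replicate 3 at 0.721. The gene held 71 to 169 counts a library.

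Cyp26b1, the other retinoic acid hydroxylase found here (ENSMUSG00000063415, chromosome 6, 84571414 to 84593908), was at 1.61, 2.38 and 1.85 CPM at E16.5. The E18.5 libraries were at 1.92, 2.76 and 2.34 CPM. The stages overlapped, and replicate 2 was the highest of each stage. In log2 the change was 0.26 ± 0.30, with an interval of -0.41 to 0.94 and an adjusted p of 0.790.

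Receptors. Rara, the most abundant receptor gene of its family in these hearts (ENSMUSG00000037992, chromosome 11, 98927818 to 98974942), was at 79.0, 53.5 and 80.4 CPM in E16.5 replicates 1, 2 and 3. It was at 59.2, 49.0 and 49.5 CPM in the E18.5 libraries. E16.5 replicates 1 and 3 were above all E18.5 libraries, and E16.5 replicate 2 lay under E18.5 replicate 1. In FPKM the stages did not overlap, at 13.3, 13.8 and 15.5 against 11.6, 11.2 and 11.5. The log2 change was -0.43 ± 0.18, with an interval of -0.85 to -0.020, an unadjusted p of 0.0418 and an adjusted p of 0.499. Without E16.5 replicate 2 it was -0.60 with an adjusted p of 0.0536, the lowest adjusted p of any of the 9 genes under any alternative. In that fit the calls over all genes also went from 30 to 371. With any other library left out, the log2 change of Rara ran from -0.54 to -0.34, with an adjusted p from 0.494 to 0.951.

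Rarb, a receptor gene that is itself induced by retinoic acid through the element shown above (ENSMUSG00000017491, chromosome 14, 16430839 to 16819156), was at 1.08, 1.44 and 1.78 CPM at E16.5. It was at 2.16, 1.73 and 2.05 CPM in the E18.5 libraries. E16.5 replicate 1 was the lowest, and E16.5 replicate 3 lay just above E18.5 replicate 2. In FPKM the stages were apart, with 0.303 the highest at E16.5 and 0.324 the lowest at E18.5. Stages were apart in FPKM for 3 of the 9 genes, Rara, Rarb and Dhrs3, as against 11.9% of all genes. The log2 change of Rarb was 0.47 ± 0.32, with an interval of -0.25 to 1.19 and an adjusted p of 0.663. Top2b, a topoisomerase gene on the other strand, shares 34.1% of the exon bases of Rarb in GENCODE and held 69.6 times as many counts. The sources used here do not say if strand was used in counting, so the level of Rarb is uncertain. Top2b itself lay between 114 and 122 CPM in the 6 libraries, with a log2 change of 0.042.

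**Figure D2:**
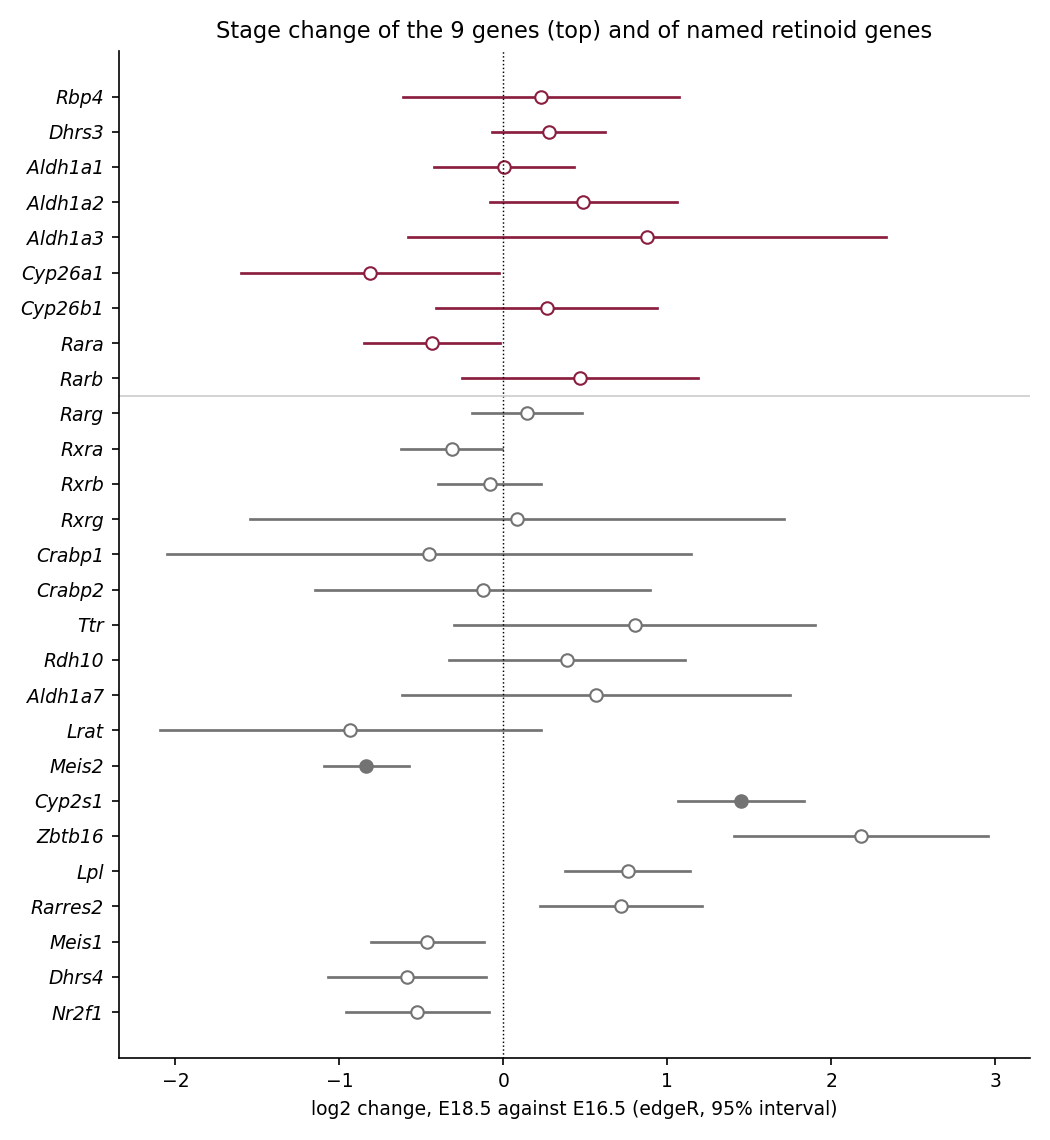
Points give the log2 change from E16.5 to E18.5 on the horizontal axis (edgeR), and lines its 95% interval, for the 9 genes above the grey line and for other named retinoid genes below it. Filled points passed an adjusted p of 0.05, which only Meis2 and Cyp2s1 did, and the intervals of Cyp26a1 and Rara end just short of 0.

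Rarb and Cyp26a1 share the DR5 element and are both known to follow retinoic acid, and their log2 changes had opposite signs, neither past the threshold. Their ratio does not depend on how libraries are scaled. The FPKM of Rarb was 0.151, 0.264 and 0.452 times that of Cyp26a1 in E16.5 replicates 1, 2 and 3, and 0.771, 0.621 and 0.543 times in the E18.5 libraries. Every E18.5 library was above every E16.5 library. The exact two-sided permutation p was 0.10, the smallest that 3 against 3 libraries allow, and 0.214 after Benjamini-Hochberg adjustment over 15 ratios and shares. These were chosen after the values of the genes had been seen. The stages were apart in 7 of the 15 and overlapped in 8, whose exact permutation p ran from 0.2 to 0.7. Among the 8 were Aldh1a2 to Rara, Dhrs3 to Rdh10 and the shares of the Aldh1a and RXR genes. The 7 were not separate results. Some hold the same Cyp26a1 values, namely Rarb to Cyp26a1, Aldh1a2 to Cyp26a1, the summed Aldh1a to Cyp26 ratio and the Cyp26a1 share. The rest are the shares of Rara, Rarb and Rarg, which are parts of the same sum. How often stages were apart in ratios of other genes was not computed.

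Aldh1a2 to Cyp26a1, a synthesis gene against a breakdown gene, was at 3.60, 9.49 and 11.1 in the E16.5 libraries on the FPKM scale. It was at 19.5, 23.7 and 13.2 in the E18.5 libraries, all above E16.5 (exact permutation p = 0.10, adjusted 0.214). E16.5 replicate 1 was again the lowest. For the 3 Aldh1a genes summed against both Cyp26 genes the ratio was 3.80, 7.46 and 9.12 in the E16.5 libraries and 13.4, 13.6 and 9.37 in the E18.5 libraries, where E16.5 replicate 3 and E18.5 replicate 3 nearly touched. Cyp26a1 made up 81.9%, 69.7% and 68.4% of the summed FPKM of the Cyp26 pair in the E16.5 libraries, and 59.6%, 50.5% and 62.0% in the E18.5 libraries. Cyp26a1 was the larger part in every library, and the stages did not overlap (exact permutation p = 0.10, adjusted 0.214).

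Among the receptors, Rara made up 85.0%, 79.9% and 85.5% of the summed FPKM of Rara, Rarb and Rarg in the E16.5 libraries, then 79.2%, 74.8% and 77.6% in those of E18.5. The stages did not overlap, E16.5 replicate 2 being the nearest to E18.5. Rarb was 0.958%, 1.76% and 1.56% at E16.5, then 2.38%, 2.16% and 2.64% at E18.5. Rarg, the third receptor, was the remainder, at 12.9% to 18.3% and then 18.5% to 23.1%. Each of the 3 shares had an exact permutation p of 0.10 (adjusted 0.214), and they are not independent, since they sum to 100%.

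**Figure D3:**
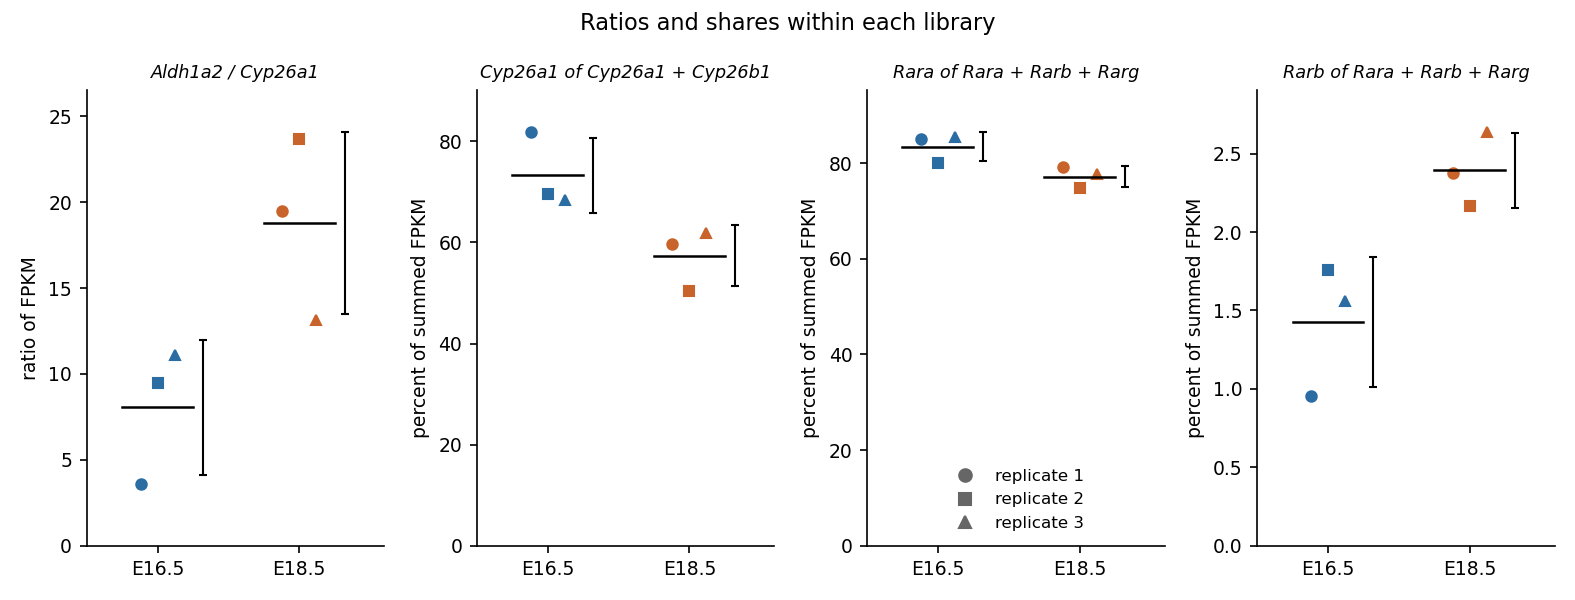
Each panel plots, from 0, a ratio of FPKM values (the leftmost panel) or a share of summed FPKM in percent, by stage, with points for libraries, the bar for the mean and the bracket for 1 SD (n = 3). The stages do not overlap in any of the 4 panels, and the nearest libraries are those of replicate 3 in the leftmost panel, 11.1 at E16.5 and 13.2 at E18.5.

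Levels per transcript length followed the order Rara, Aldh1a2, Dhrs3, Rbp4, Aldh1a1, Cyp26a1, Cyp26b1, Rarb and Aldh1a3 by mean FPKM over the 6 libraries. The means ran from 12.8 ± 1.67 for Rara (SD, n = 6), 8.68 ± 3.10 for Aldh1a2 and 4.45 ± 0.831 for Dhrs3 down to 0.300 ± 0.0824 for Rarb and 0.151 ± 0.0882 for Aldh1a3. Between Dhrs3 and Rbp4 there was a gap, with 3.07 the lowest FPKM of Dhrs3 and 1.77 the highest of Rbp4. All other neighbours in this order overlapped in range. Rbp4 and Aldh1a1 did not differ beyond their spread (1.24 ± 0.408 and 1.23 ± 0.164), and Rbp4 was the higher in 3 of 6 libraries. Aldh1a2 was above Dhrs3, Cyp26a1 above Cyp26b1 and Rarb above Aldh1a3 in 6 of 6 libraries, while Rara was above Aldh1a2 in 5 of 6, the exception being E18.5 replicate 2 (11.2 against 12.4 FPKM). Aldh1a2 made up 77.6% to 88.6% of the summed FPKM of the 3 Aldh1a genes.

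**Figure D4:**
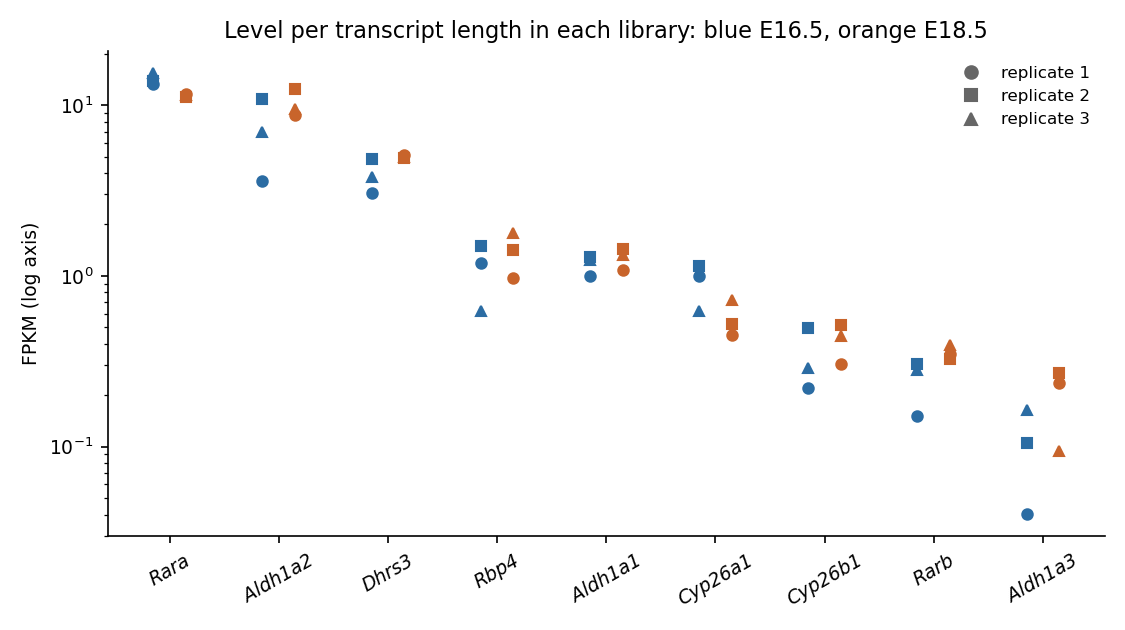
FPKM on a logarithmic vertical axis is plotted for the 9 genes in order of their mean, with points for libraries, blue for E16.5 and orange for E18.5. Rara, Aldh1a2 and Dhrs3 lie above 3 FPKM in every library, and the other 6 genes lie below 2 FPKM.

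Aldh1a2 marks the epicardium and the epicardium-derived stroma, so its libraries were set beside the marker lists. The 12 epicardial markers summed to 43.4 to 68.0 FPKM at E16.5 and 82.5 to 93.9 FPKM at E18.5, with 10 of 12 positive in log2 change, 1 called (Krt19) and none at 0. The 7 fibroblast markers summed to 181 to 464 and then 435 to 572 FPKM, with 7 of 7 positive and 0 called. Of all genes tested, 49.8% were positive and 0.150% were called. The marker lists were chosen with earlier results of these data known, so their counts beside these shares are not a test of the cell types. On the log2 scale of CPM, the E18.5 mean minus the E16.5 mean was 0.54 for Aldh1a2, 0.50 for the summed epicardial list, 0.58 for the summed fibroblast list, 0.12 for the endothelial list and 0.065 for the cardiomyocyte list. It was 0.79 for the atrial cardiomyocyte list and 0.47 for the smooth muscle list, each with 5 of 5 markers positive and 0 called. In E16.5 replicate 1 the value of Aldh1a2 was low (-0.85 from the mean of the libraries). The fibroblast list was nearest to it there (-0.69), with the epicardial list at -0.27. Most of the fibroblast sum came from Col1a1, Col3a1 and Postn, at 47.4, 54.3 and 56.5 of 181 FPKM in that library. Log2 changes within the fibroblast list ran from 0.056 for Pdgfra to 0.79 for Col1a1. Within the epicardial list the log2 changes ran from -0.15 for Tbx18 to 1.58 for Lrrn4, with 7 of 12 above that of Aldh1a2 (0.49) and 5 below. The epithelial keratin gene Krt19 was at 1.23, and the transcription factor genes Wt1 and Tcf21 were at 0.25 and 0.26. Differences of single markers from Aldh1a2 were not tested. In whole hearts, more cells of a type and more RNA per cell cannot be told apart, and the part of these lists in the level of Aldh1a2 was not tested.

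**Figure D5:**
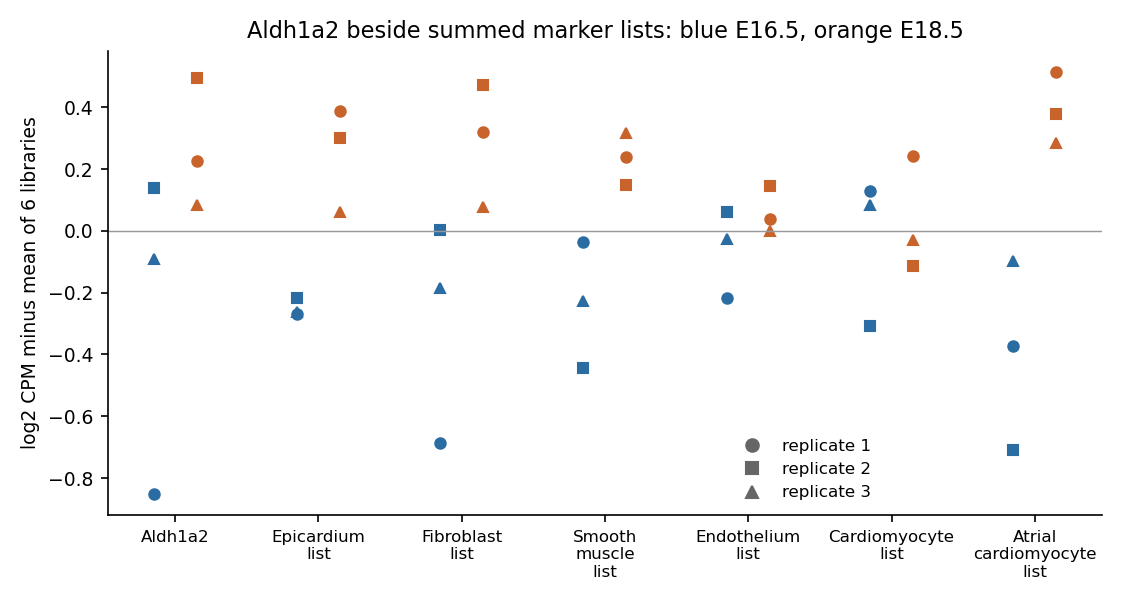
For Aldh1a2 and the summed marker lists, the vertical axis gives log2 CPM minus the mean of the 6 libraries, with blue points for E16.5 and orange for E18.5. E16.5 replicate 1 is the lowest point for Aldh1a2 (-0.85) and for the epicardial (-0.27), fibroblast (-0.69) and endothelial (-0.22) lists. The stages do not overlap in the epicardial, fibroblast, smooth muscle and atrial lists.

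The wider retinoid pathway held 70 other genes by textbook role, of which 64 were in the table and 54 passed the filter. The list was chosen with earlier results of these data known, so its counts beside the shares of all genes are not a test of the pathway. In the fit over all genes 1 of the 54 rose and 1 fell, and at an unadjusted p under 0.05 there were 6 higher and 5 lower. Of all genes tested, 0.0952% rose and 0.0551% fell, and 4.83% were higher and 4.70% lower at that unadjusted p. The median log2 change was 0.020, beside -0.0019 for all genes. Meis2, a homeobox gene that responds to retinoic acid, fell, its mean being 54.3 ± 3.07 CPM at the earlier stage and 30.4 ± 0.614 at the later (SD, n = 3; log2 change -0.84 ± 0.11, adjusted p = 0.0474). Cyp2s1, a cytochrome P450 able to oxidise retinoic acid, rose, with means of 4.77 ± 0.237 and 13.0 ± 1.43 CPM (log2 change 1.45 ± 0.17, adjusted p = 0.0297). In Meis2 and Cyp2s1 all libraries of a stage lay on the same side of the other stage. Both lost the call in each of the fits that left out a library, except the fit without E16.5 replicate 2. Their log2 changes in those fits ran from -0.87 to -0.80 for Meis2 and from 1.347 to 1.497 for Cyp2s1.

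In uptake and storage, 0 of 9 tested genes passed, and 7 were positive. Ttr, which carries RBP4 in plasma, ranged from 2.00 to 8.77 CPM at E18.5 alone, and its log2 change was 0.80 (adjusted p = 0.625). The lipase Lpl, which also delivers retinyl esters, had a log2 change of 0.76 (adjusted p = 0.185). For Lrat, which makes retinyl esters, the value was -0.93 (adjusted p = 0.593). Without E18.5 replicate 2, Ttr was at 0.20 and Lrat at -1.57. The retinol receptor gene Stra6 had at most 16 counts in any library and was not tested.

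Of the retinol and retinal enzymes 0 of 14 passed, with 5 positive and 9 negative. Rdh10, the retinol dehydrogenase of the embryo, was at 2.93 ± 1.23 and 3.84 ± 0.321 CPM (log2 change 0.39, adjusted p = 0.715). Dhrs4, a reductase, had the smallest p of this group, with a log2 change of -0.59 (adjusted p = 0.431). Cyp26c1, the third CYP26 gene, held at most 22 counts a library and did not pass the filter.

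Of the 3 binding proteins and the 4 other receptors, 0 passed. Crabp1 and Crabp2, which carry retinoic acid in the cell, had log2 changes of -0.45 (adjusted p = 0.854) and -0.13 (adjusted p = 0.940). Rxra, the main RXR of the heart in genetic studies, was at 23.9, 24.99 and 22.0 CPM in the E16.5 libraries, then 17.4, 19.6 and 20.0 CPM. The stages were apart in CPM and overlapped in FPKM, and the edgeR estimate was -0.32 ± 0.14 in log2 (adjusted p = 0.511). Rxrb made up 71.0% to 79.3% of the summed FPKM of the 3 RXR genes, and Rxra 19.6% to 28.6%. The log2 changes of Rarg, Rxrb and Rxrg were 0.15, -0.083 and 0.082, with adjusted p from 0.768 to 0.979.

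Of the 7 cofactors 0 passed. Zbtb16, a partner of Rara in a leukaemia fusion and also a glucocorticoid target, was at 0.806 ± 0.291 and 3.66 ± 0.352 CPM (log2 change 2.18 ± 0.34, adjusted p = 0.0769). Among genes known to respond to retinoic acid, 1 of 15 tested passed, which was Meis2, and 8 were positive. Rarres2 was at 0.72 (adjusted p = 0.353), Meis1 at -0.46 (adjusted p = 0.382) and the nuclear receptor gene Nr2f1 at -0.52 (adjusted p = 0.435) in log2 change, none past the threshold. Epo, a retinoic acid target of liver, had at most 1 count in any library.

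The genes whose pattern over the 6 libraries was nearest to that of a member were sought among 10911 genes with a mean of at least 1 FPKM, by the root mean square difference of centred log2 CPM. They are given for the 4 members with the largest spread. For Aldh1a2 they were Bloc1s4 (0.047), Cavin3 (0.073) and Gng11 (0.075). For Cyp26a1 they were Creb5 (0.15), Ormdl2 (0.15) and Gstt1 (0.17). For Rbp4 they were Zgpat (0.069), Rnf128 (0.11) and Zfp955b (0.11). For Aldh1a3, which has few counts, the nearest were the elastic fibre genes Eln (0.35) and Fbln5 (0.36) and the hedgehog target Gli1 (0.38). None of these neighbours passed an adjusted p of 0.05.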

How the data were processed

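RNA-seq of fetal mouse hearts was measured in 6 libraries, 3 at E16.5 and 3 at E18.5. Per the labels' protocols, poly(A) RNA was captured on oligo(dT), dUTP marked the second cDNA strand, and adapters carried molecular identifiers. Tools named without a role in the submitters' processing notes were StringTie 1.3.4d, HISAT2 2.0.4, cutadapt 1.9 and UMI-tools, beside build mm9. The authors deposited an estimated count per gene and library, written as whole numbers per the file headers, and FPKM (fragment counts scaled by the authors to transcript length and library size). Intervals cover the spread between libraries.

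The test between stages was run in edgeR 4.0.16 under R 4.3.3 (quasi-likelihood test, two-sided, filterByExpr, TMM, stage only, Benjamini-Hochberg over 19959 genes, threshold 0.05). SE was taken as the size of the log2 change over the root of F. CPM uses TMM-scaled library sizes. The fit was tested on simulated counts. Alternatives used DESeq2 1.42.0, limma 3.58.1 on log2(FPKM + 0.1) and log2(FPKM + 1), other scalings, no filter, the mitochondrial share as a term, a replicate block and each library left out. Ratios were tested by exact permutation (scipy 1.17.1). Where identifiers shared a symbol, the one with the highest summed count was used. Gene positions came by identifier from GENCODE M21 on GRCm38, not from the deposited columns, and promoter windows from RefSeq on GRCm38.p6.

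The 9 genes, the wider list and the marker lists were chosen with earlier results of these data known. Named genes were the 9, wider-list genes past the threshold, the 8 of that list with the smallest p, and 15 fixed by name, of which 1 is not reported here. The genes nearest in pattern were 3 per member. Top2b, Krt19 and single markers were named after their values were seen.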

Additional observations from a re-analysis of the deposited data

How the results depend on the processing

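Of the 9 genes, 0 were called under each of the 14 alternatives run on all of them, and 7 kept the sign of their log2 change in all of these. Aldh1a1, level between stages, turned to -0.0015 with DESeq2 size factors in edgeR, -0.0034 with mitochondrial genes left out of scaling and -9.7e-04 with DESeq2, and ran from -0.086 to 0.085 with a library left out. Rbp4 ran from -0.038 to 0.46, Rxrg from -0.34 to 0.54, Crabp1 from -0.85 to 0.18 and Crabp2 from -0.37 to 0.39 in the same fits. Rxrb was at 0.020 and Crabp2 at 0.065 in limma on log2(FPKM + 0.1), and 0.015 and 0.016 on log2(FPKM + 1). With the mitochondrial share as a term Rxrg was at -0.015 and Crabp2 at 0.018. Over all genes, 30 calls became 403 with DESeq2, 18 and 10 in limma with pseudocounts 0.1 and 1, 184 with the mitochondrial share as a term, and 8 (without E16.5 replicate 3) to 371 (without E16.5 replicate 2) with a library left out. In the wider list, 2 calls became 1 (Cyp2s1) with no filter on low counts and 0 in each limma fit. They became 4 with DESeq2, with the mitochondrial share as a term and without E16.5 replicate 2, where Lpl and Zbtb16 joined Meis2 and Cyp2s1, and 0 without each other library. The cause was not tested. With 3 libraries a stage it could not be decided if replicate numbers paired the libraries. Deviations of same-numbered libraries correlated at 0.102, 0.185 and -0.066, and those of differently numbered libraries at -0.262 to 0.164. Not every library correlated best with its own number. With a replicate block 43 genes, 0 of the 9 and 1 of the wider list (Cyp2s1) were called. Low counts limit Aldh1a3, Rarb, Rbp4 and the Cyp26 genes, with at most 194 counts a library.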
